A study of Mus musculus with 20 samples.

Results

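The genes described here are those of the cytosolic ribosomal proteins, the protein subunits of the ribosome that translates nuclear-encoded mRNA. They were chosen by symbol alone: Rpl or Rps followed by a digit, plus Rplp0, Rplp1, Rplp2 and Rpsa, without rows named as pseudogenes and without the Rps6k kinases. The rule took 93 of the 55822 rows in the table. Of these, 77 encode core ribosomal proteins (43 of the large subunit, 31 of the small subunit and 3 of the P stalk), 8 are paralogs of a core gene, 7 are retrocopies, and Rps19bp1 encodes a protein that binds a ribosomal protein and is not itself one. The filter on low counts passed 86 of the 93, including all 77 core genes.

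Poly(A) RNA was sequenced from whole kidneys of 8-week-old male C57BL/6J mice, 20 samples in 4 groups of 5. The samples used here are 5 controls given phosphate-buffered saline and 5 given puberulic acid, a fungal tropolone, at 1 mg per day. Both groups were dosed once daily for 6 days and the kidneys were collected on day 7, after a day without dosing. By the labels dosing was oral in one field and by gavage or intraperitoneal injection in another, without a route per animal. The remaining groups, given 1000 mg per day of a supplement lot, were not analysed here. The 10 libraries held 18409877 to 24705587 estimated counts each. The labels call the 5 samples of a group replicates without naming the animal of each, so p-values measure the spread between these samples. Proximal tubule markers were abundant in control kidneys (Lrp2, Cubn, Slc34a1, Slc5a2 and Slc5a12 had a summed level of 5064 to 8283 CPM, scaled as described with the test), which matches the labelled tissue.

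A ribosome joins a small subunit, which reads the mRNA, to a large subunit, which forms peptide bonds, and each core protein is normally present once per subunit, apart from the stalk proteins Rplp1 and Rplp2, which are present as pairs. The mRNAs of these proteins are known to begin with a C followed by a run of pyrimidines, the terminal oligopyrimidine (TOP) tract, through which mTOR and the RNA-binding protein Larp1 control their translation and stability. The kidney tubule is rich in mitochondria and reabsorbs much of its filtrate, and ribosomal protein mRNA is abundant there as in other tissues.

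The members took up a larger share of the RNA after puberulic acid. In control replicates 1 to 5 they held 1.79%, 1.92%, 2.20%, 2.18% and 2.21% of the estimated counts. In puberulic acid replicates 1 to 5 they held 3.48%, 4.44%, 4.54%, 4.80% and 4.22%. Every puberulic acid library lay above every control library, and puberulic acid replicate 1 was the lowest of its group. The means were 2.06% ± 0.19 and 4.29% ± 0.50 (SD, n = 5 each), a difference of 2.23 percentage points and a ratio of 2.08, and no test was made of this sum because the members were chosen with results of these data known. A share depends on no scaling factor, but it also moves with everything else in the library. Mitochondrially encoded transcripts made up 18.8% to 22.2% of the counts in controls and 10.5% to 13.8% after puberulic acid. With those left out of the total the members' share was 2.58% ± 0.23 against 4.93% ± 0.58, a ratio of 1.91. In CPM, scaled as described with the test, the members' sum averaged 24590 in controls and 36100 after puberulic acid, a smaller ratio of 1.47.

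**Figure D1:**
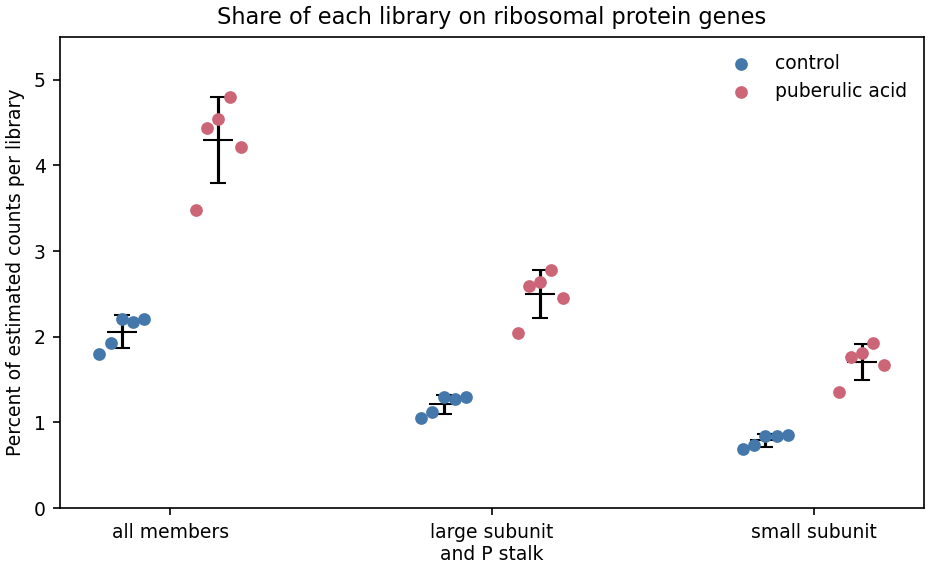
Percent of each library's estimated counts (y axis) on all members, on the large subunit with the P stalk and on the small subunit, with 1 point per library, black lines for the mean and bars for the SD (n = 5). All puberulic acid points lie above all control points in each class, between 3.48% and 4.80% against 1.79% to 2.21% for all members.

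Both subunits took part in the difference in share. Genes of the large subunit and stalk held 1.06% to 1.30% of the counts in controls and 2.04% to 2.78% after puberulic acid. Small subunit genes held 0.685% to 0.859% in controls and 1.36% to 1.93% after puberulic acid. The ratio of large to small subunit counts was 1.51 to 1.55 in controls and 1.44 to 1.50 after puberulic acid, so the ranges did not overlap, with a difference of -0.0587 between means of 1.53 and 1.47. This ratio, too, is a description without a test.

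Gene by gene, levels were compared as CPM, the field's depth-scaled count, on library sizes scaled by trimmed mean of M-values (TMM), with edgeR's quasi-likelihood test and Benjamini-Hochberg adjustment over all 16266 genes tested, and a gene was called at an adjusted p under 0.05. Of the 86 members tested, 72 were called higher (83.7%), 1 was called lower and 13 were not called. Over all genes tested, 34.2% were called higher and 31.1% were called lower, 65.3% in all. On total counts without a scaling factor 85 members were called higher, among 56.4% of all genes tested, and with upper-quartile factors 77 were, among 38.1%. The median log2 fold change was 0.55 over the members and 0.05 over all genes tested. In 58 members (67.4%) every puberulic acid library lay above every control library, against 26.1% of all genes tested, and no member showed the opposite separation, which 24.0% of all genes tested showed. Because these are whole kidneys, more RNA of a gene per cell and a larger share of cells that carry much of it cannot be told apart.

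The fold changes of the core genes lay close together. Of the 77, 68 were called higher, none was called lower, and 62 had a log2 fold change between 0.3 and 0.9, with a median of 0.56 and quartiles of 0.46 and 0.69. At an unadjusted p under 0.05 in edgeR, 0 core genes were lower, and DESeq2 called 0 lower. The large subunit had 38 of 43 genes called higher with a median log2 fold change of 0.52, and the small subunit had 27 of 31 with a median of 0.63. Whether the subunits differed was not tested.

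The libraries differed in how far the core genes moved as a block. Against the control mean, the median log2 difference over the 77 core genes was 0.28, 0.62, 0.67, 0.78 and 0.44 in puberulic acid replicates 1 to 5. The same measure was -0.18, -0.09, 0.09, 0.06 and 0.11 in control replicates 1 to 5. In puberulic acid replicates 2, 3 and 4 all 77 core genes lay above the control mean, while 70 did in replicate 1 and 76 in replicate 5. Without puberulic acid replicate 1, 75 members were called higher, and without replicate 4, 63 were. Replicate 1, with the smallest shift, also had the group's highest sum of proximal tubule markers, 769 CPM against 241 to 333 CPM in the other 4. It had the lowest sums of fibroblast markers (350 CPM against 514 to 1391), cycling-cell markers (58.8 CPM against 129 to 191) and leukocyte markers (89.0 CPM against 176 to 313), and their part in its smaller shift was not tested.

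**Figure D2:**
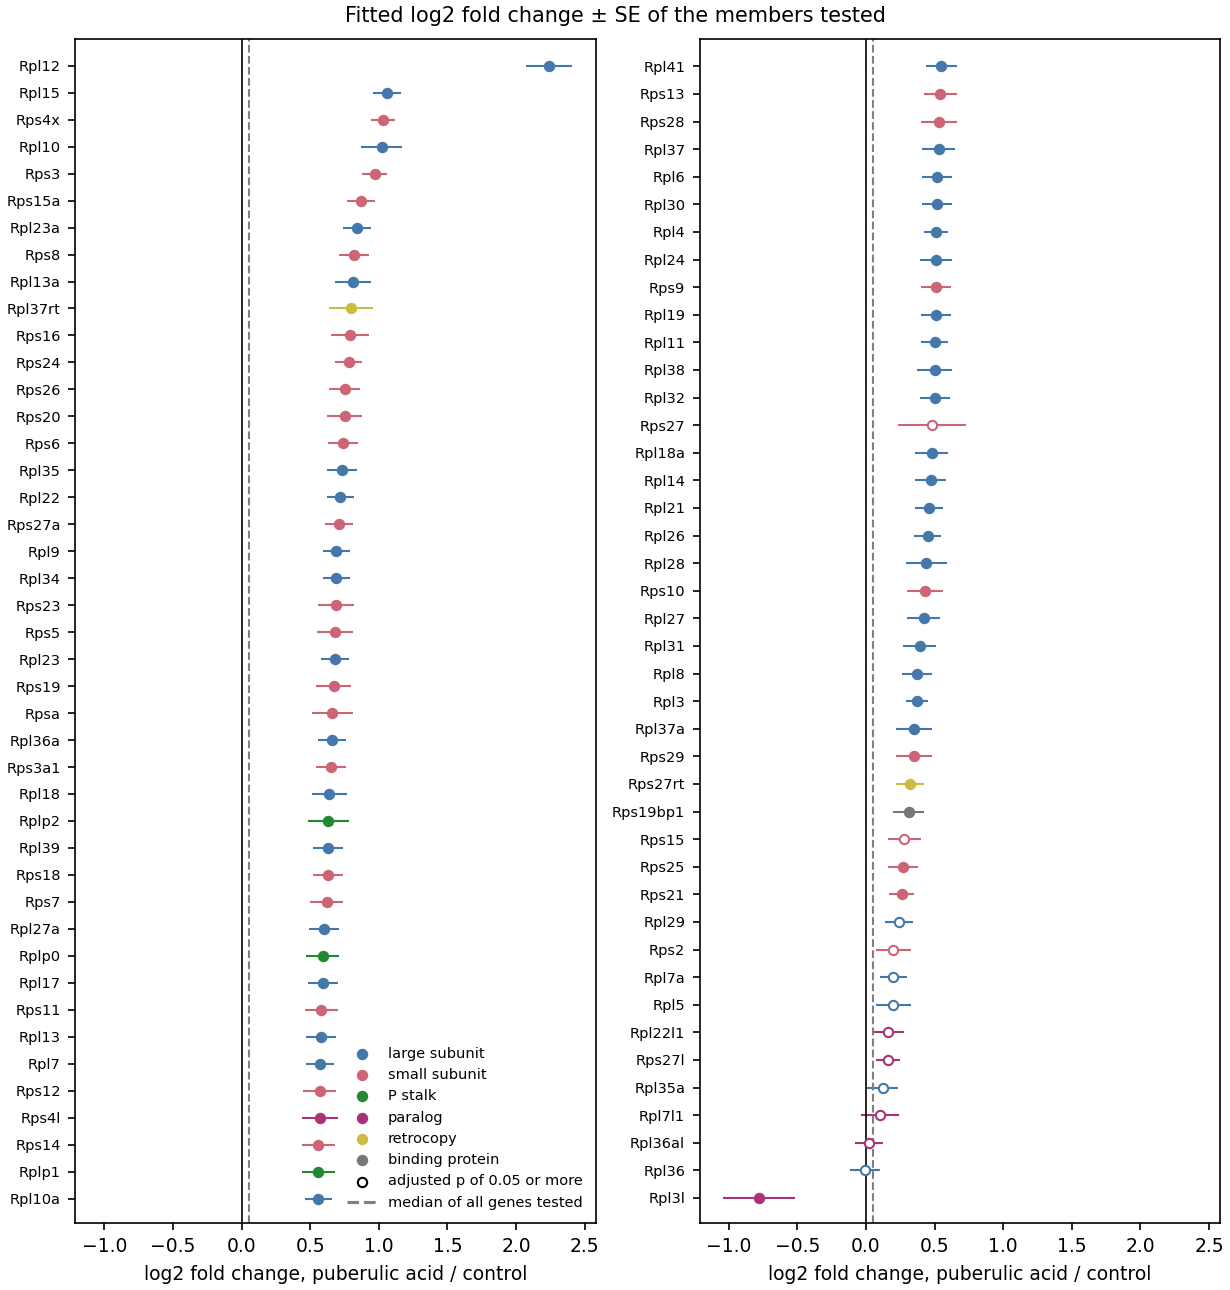
Fitted log2 fold change, puberulic acid over control (x axis), of the members tested, 1 of them not shown, ordered by size and coloured by class, with bars for the SE. Filled points had an adjusted p under 0.05 in edgeR, the dashed line is the median of all genes tested (0.05), and nearly all core genes lie to its right, with Rpl12 highest at 2.24 and the paralog Rpl3l lowest at -0.78.

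The stalk proteins and Rpsa moved with the rest. Rplp0 anchors the stalk that recruits elongation factors to the large subunit, and its level was 666, 764, 823, 900 and 947 CPM in control replicates 1 to 5 and 1039, 1292, 1294, 1446 and 1121 CPM after puberulic acid. All puberulic acid libraries were above all controls, with a log2 fold change of 0.59 ± 0.12 (SE) and an adjusted p of 0.00102 in edgeR. Rplp1, an acidic stalk protein, was at 447, 473, 572, 553 and 606 CPM in controls and at 642, 844, 833, 908 and 684 CPM after puberulic acid. Rplp2, its partner, was at 130, 173, 189, 186 and 166 CPM in controls and at 193, 272, 300, 317 and 227 CPM after puberulic acid. Neither gene's groups overlapped, although puberulic acid replicate 1 stood only just above the highest control, and the log2 fold changes were 0.56 ± 0.12 and 0.63 ± 0.15. Rpsa, a small subunit protein also known as the laminin receptor, was at 538, 559, 666, 729 and 771 CPM in controls and at 733, 1117, 1132, 1231 and 947 CPM after puberulic acid. Its groups overlapped through puberulic acid replicate 1, and the log2 fold change was 0.66 ± 0.15 with an adjusted p of 0.00225 in edgeR.

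The members with the largest fitted changes came from both subunits. Rpl15, a large subunit protein, was at 311, 318, 356, 316 and 320 CPM in control replicates 1 to 5 and at 564, 692, 713, 778 and 628 CPM after puberulic acid. Rps4x, the X-linked small subunit protein, was at 328, 328, 362, 360 and 369 CPM in controls and at 631, 734, 725, 819 and 662 CPM after puberulic acid. Rps3, which lines the mRNA entry channel of the small subunit, was at 338, 392, 366, 355 and 346 CPM in controls and at 622, 730, 809, 690 and 680 CPM after puberulic acid. In these 3 genes the groups lay far apart, and the log2 fold changes were 1.06 ± 0.10, 1.03 ± 0.09 and 0.97 ± 0.09 (SE), with edgeR adjusted p-values of 2.05e-06, 1.36e-06 and 2e-06. Rps15a, another small subunit protein, rose from 153, 155, 168, 155 and 149 CPM to 239, 276, 302, 337 and 273 CPM, a log2 fold change of 0.87 ± 0.10.

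Rpl12 and Rpl10 also stood among the 6 largest changes, but at low levels for core genes. Rpl12, a large subunit protein at the base of the stalk, was at 9.51, 6.45, 6.43, 8.07 and 8.76 CPM in controls and at 27.0, 46.2, 38.2, 41.6 and 32.5 CPM after puberulic acid, a log2 fold change of 2.24 ± 0.17 with an edgeR adjusted p of 4.46e-07. Rpl10, which joins the large subunit late in its assembly, was at 46.0, 39.6, 44.9, 60.8 and 38.1 CPM in controls and at 71.2, 97.2, 106, 105 and 87.3 CPM after puberulic acid, a log2 fold change of 1.02 ± 0.15. The groups were apart in both genes, and both have copies elsewhere in the genome to which most of the estimated counts were assigned.

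Near-identical copies bore on a few single-gene values. Coding sequences of the core genes were compared with all annotated transcripts, and 551 copies with at least 95% identity over at least 80% of the coding length were found for 73 of the 77 core genes; 23 of the copies had a mean of at least 100 counts in a group. The copies named in this paragraph were chosen after their values were seen. In the controls Gm10275 held 96.8% of the counts of Rpl12 and itself, Rps27rt held 94.8% of those of Rps27 and itself, Rpl10-ps3 held 92.4% of those of Rpl10 and itself, and Gm15500 held 87.3% of those of Rpl5 and itself. Each of these matched the coding sequence at 100% identity over the matched stretch, so how reads were split within each pair cannot be told from the table. Adding the counts of all copies to their core gene, an alternative chosen after the data were seen, gave a log2 fold change of 0.86 ± 0.12 for Rpl12 (245 to 444 CPM on average) and 0.25 ± 0.10 for Rpl10 (604 to 717 CPM). The same sums gave 0.58 ± 0.09 for Rpl5 (489 to 731 CPM) and 0.33 ± 0.10 for Rps27 (186 to 234 CPM). These 4 were the only core genes that moved by more than 0.1, and with copies added 70 of 77 were called higher, 7 were not called, the median was 0.57 and the highest value was 1.03.

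**Figure D3:**
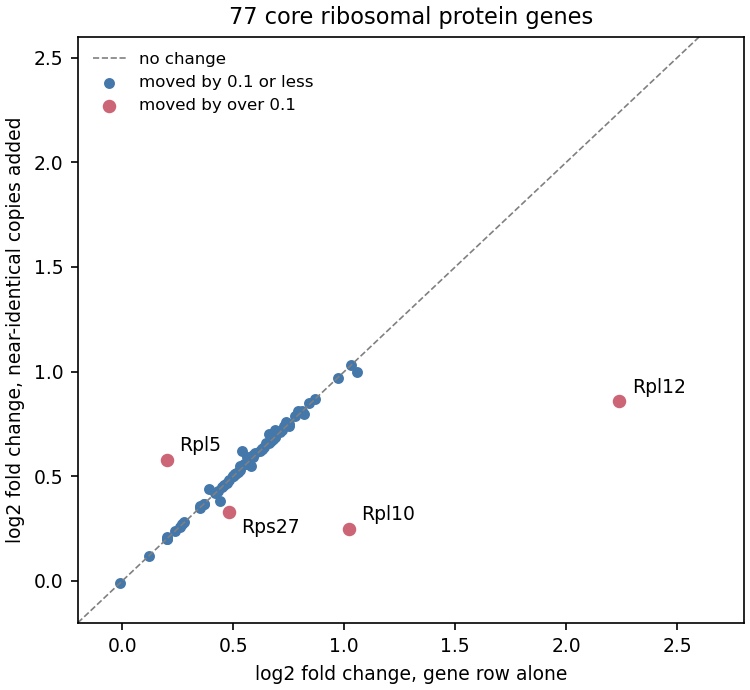
Log2 fold change, puberulic acid over control, of the 77 core genes from the gene's own row (x axis) and with the counts of near-identical copies added (y axis), 1 point per gene. Of the genes, 73 lie within 0.1 of the dashed line of equality, while Rpl12 falls from 2.24 to 0.86, Rpl10 from 1.02 to 0.25 and Rps27 from 0.48 to 0.33, and Rpl5 goes from 0.20 to 0.58.

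Core genes that were not called included Rpl5, Rpl7a, Rpl29, Rpl35a, Rpl36, Rps2, Rps15 and Rps27. Rpl36, a large subunit protein, was at 140, 160, 190, 180 and 196 CPM in controls and at 145, 189, 190, 174 and 160 CPM after puberulic acid. Its groups covered nearly the same range, and the log2 fold change was -0.01 ± 0.11 (SE). Rpl35a, a large subunit protein mutated in some Diamond-Blackfan anaemia, was at 205, 236, 272, 247 and 236 CPM in controls and at 206, 271, 297, 269 and 257 CPM after puberulic acid, a log2 fold change of 0.12 ± 0.11 with overlapping groups. Rps2, a small subunit protein near the mRNA entry channel, was at 748, 953, 1017, 1121 and 1175 CPM in controls and at 967, 1207, 1238, 1293 and 1067 CPM after puberulic acid, a log2 fold change of 0.20 ± 0.13. An adjusted p that misses the threshold does not show that these genes stayed level.

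Per coding length, control levels were highest for Rpl41, Rplp1 and Rps2, at 6524, 1550 and 1141 CPM per kilobase of coding sequence. Rpl41 encodes the smallest of the proteins, with a coding sequence of 75 bases, so its level per coding length leaves out most of the transcript. Rpl41 was at 448, 523, 535, 475 and 466 CPM in controls and at 580, 783, 788, 801 and 630 CPM after puberulic acid, without overlap, and its log2 fold change of 0.55 ± 0.11 equalled the members' median.

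The ribosomal protein p53 checkpoint rests on Rpl5 and Rpl11, which with their ribosomal RNA can bind Mdm2, the ubiquitin ligase that limits p53. Rpl11 was at 298, 302, 343, 374 and 360 CPM in control replicates 1 to 5 and at 412, 482, 499, 522 and 464 CPM after puberulic acid. All puberulic acid libraries lay above all controls, with a log2 fold change of 0.50 ± 0.10 and an edgeR adjusted p of 0.000638. The Rpl5 row was at 57.3, 48.7, 75.5, 64.3 and 66.8 CPM in controls and at 59.7, 75.2, 74.7, 83.4 and 66.4 CPM after puberulic acid. These groups overlapped, and the log2 fold change of 0.20 ± 0.13 (edgeR adjusted p of 0.177) became 0.58 with the copies added (edgeR adjusted p of 0.000148). Of the 7 tested genes of the checkpoint list, which holds neither of these members, 4 were called higher and 1 lower, where 34.2% and 31.1% of all genes were. Cdkn1a, a p53 target that blocks the cell cycle, rose, with 3.40 to 7.01 CPM in controls and 246 to 384 CPM after puberulic acid (log2 fold change 6.22 ± 0.23), and Mdm2 rose as well, with 35.9 to 37.5 CPM and 89.9 to 115 CPM (1.52 ± 0.08).

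Most paralogs were not called. They are second copies of a ribosomal protein gene, with or without introns, some of them expressed in few tissues, and their place in the ribosome is less well known than that of the core protein. Of the 6 tested, 1 was called higher, 1 was called lower and 4 were not called, where 34.2% of all genes were called higher and 31.1% lower. The median log2 fold change was 0.13 against 0.56 for the core genes. The difference in change between a paralog and its core gene was not tested. The values are given as paralog CPM and then as a percentage of the core gene's CPM, which needs no scaling between libraries but is not corrected for transcript length.

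Rpl3l, known from heart and skeletal muscle, was the one member called lower. Its level was 4.87, 2.05, 3.56, 2.54 and 2.50 CPM in controls and 1.88, 2.20, 1.79, 1.37 and 1.74 CPM after puberulic acid, so the groups overlapped through control replicate 2. The log2 fold change was -0.78 ± 0.26 with an edgeR adjusted p of 0.0185, or -0.83 relative to the median of all genes. On total counts, where the median of all genes was itself at 0.56, it was -0.27 with an adjusted p of 0.36, which is the same distance of -0.83. Rpl3, a large subunit protein that reaches towards the peptidyl transferase centre, was at 465, 484, 537, 507 and 517 CPM in controls and at 621, 675, 668, 671 and 610 CPM after puberulic acid, without overlap (log2 fold change 0.37 ± 0.08). Relative to Rpl3, Rpl3l was at 0.424% to 1.05% in controls and 0.204% to 0.326% after puberulic acid, without overlap. Summed skeletal muscle markers (Ckm, Acta1 and Myh4) reached at most 0.808 CPM in any library.

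Rpl22l1, the paralog of the RNA-binding protein Rpl22, was at 65.5, 54.8, 66.8, 49.4 and 54.8 CPM in controls and at 55.9, 64.3, 69.7, 79.9 and 56.1 CPM after puberulic acid, with overlapping groups and a log2 fold change of 0.16 ± 0.12. Rpl22 itself was at 159, 155, 180, 159 and 150 CPM in controls and at 218, 274, 281, 309 and 242 CPM after puberulic acid, a log2 fold change of 0.72 ± 0.10 (edgeR adjusted p of 6.18e-05). As a percentage of Rpl22, Rpl22l1 was therefore lower in every puberulic acid library (23.2% to 25.9%) than in any control (31.0% to 41.3%).

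Rpl36al, an intronless paralog of the X-linked Rpl36a, was at 120, 128, 141, 112 and 102 CPM in controls and at 110, 125, 128, 135 and 112 CPM after puberulic acid. These ranges were nearly the same, with a log2 fold change of 0.02 ± 0.10. Rpl36a was at 80.3, 81.2, 96.9, 78.2 and 89.8 CPM in controls and at 115, 147, 150, 139 and 122 CPM after puberulic acid, with no overlap and a log2 fold change of 0.66 ± 0.10. Rpl36al was at 113% to 158% of the Rpl36a row in controls and 85.0% to 97.0% after puberulic acid. With the 4 near-identical copies of Rpl36a added to it, the ranges were 96.0% to 134% and 70.6% to 81.9%. They still did not overlap, but Rpl36al was below this sum in control replicate 5.

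Rps4l, a copy of Rps4x that the annotation used here lists as a pseudogene, was at 19.3, 14.3, 21.2, 18.6 and 18.3 CPM in controls and at 23.0, 27.2, 30.1, 31.9 and 23.7 CPM after puberulic acid. Its groups did not overlap and the log2 fold change was 0.57 ± 0.13, while as a percentage of Rps4x it was at 4.35% to 5.87% in controls and 3.59% to 4.16% after puberulic acid. Rpl7l1, which is known to act in ribosome assembly, was at 61.7, 93.3, 66.6, 93.6 and 66.2 CPM in controls and at 73.7, 70.5, 86.8, 78.5 and 97.9 CPM after puberulic acid, overlapping throughout (log2 fold change 0.10 ± 0.14). Rpl7 was at 442, 420, 482, 506 and 509 CPM in controls and at 590, 701, 709, 827 and 664 CPM after puberulic acid, without overlap (0.57 ± 0.10). As a percentage of Rpl7, Rpl7l1 was at 13.0% to 22.2% in controls and 9.50% to 14.8% after puberulic acid, which overlap. Rps27l, a p53 target in other settings, was at 146, 173, 175, 153 and 148 CPM in controls and at 161, 182, 186, 194 and 163 CPM after puberulic acid, a log2 fold change of 0.16 ± 0.09 with overlapping groups. Against Rps27 with its copies, Rps27l was at 77.7% to 96.9% in controls and 72.5% to 85.3% after puberulic acid, which overlap. The Rps27 row alone was at 9.54, 7.57, 8.06, 13.4 and 10.5 CPM in controls and at 8.57, 10.9, 14.4, 22.6 and 12.2 CPM after puberulic acid. Its log2 fold change of 0.48 ± 0.25 was not called (edgeR adjusted p of 0.109), and it rested on single libraries: it was 0.59 without puberulic acid replicate 1 (adjusted p of 0.0418) and 0.19 without puberulic acid replicate 4 (adjusted p of 0.42).

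**Figure D4:**
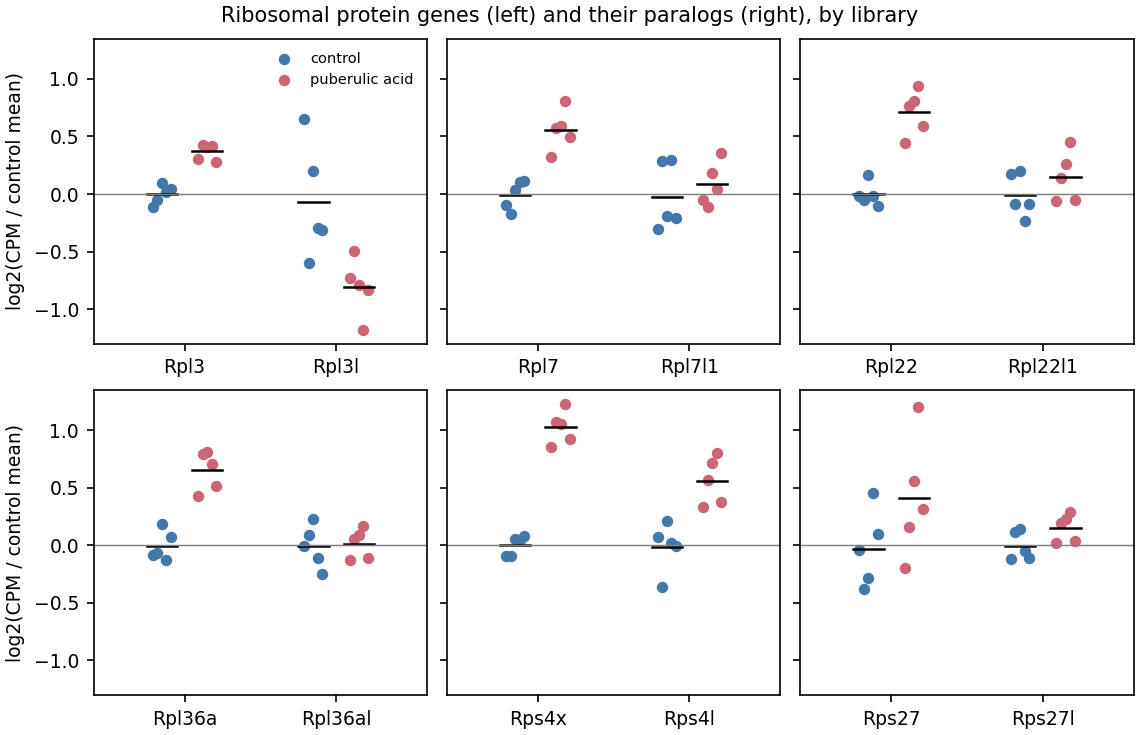
CPM of 6 ribosomal protein genes and their paralogs in each library, as log2 of the ratio to the gene's control mean (y axis), with 1 point per library and a black line for the mean of each group (n = 5). Rpl3, Rpl7, Rpl22, Rpl36a and Rps4x have all puberulic acid points above all control points, while of the paralogs only Rps4l does, and Rpl3l lies lower, with overlap.

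The remaining members outside the core genes were at or near 0 or were copies, apart from Rps19bp1. Rpl10l, a testis paralog of Rpl10, was at 0 in all 10 libraries, and Rpl39l, the testis paralog of Rpl39, had counts in puberulic acid replicate 4 alone. Rpl39 was at 139, 141, 153, 143 and 143 CPM in controls and at 175, 220, 238, 269 and 210 CPM after puberulic acid, without overlap (0.63 ± 0.11 in log2 fold change). Rpl32l, Rpl6l, Rps3a2 and Rps3a3 did not pass the filter either. Rps12l1 had 572 and 386 counts in control replicates 4 and 5 and 0 in the other 8 libraries. Rps12-ps3, named after its values were seen, was at 0 in control replicates 4 and 5 and had 112 to 1037 counts in the other 8. Both match the Rps12 coding sequence at 100% identity, so how reads were split among these rows cannot be told. The retrocopies Rpl37rt and Rps27rt passed the filter and were called higher, with log2 fold changes of 0.80 ± 0.16 and 0.32 ± 0.10, and reads they share with Rpl37 and Rps27 make both values uncertain. Rps19bp1 was called higher at 0.31 ± 0.11.

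Starts of the genes were looked at because members moved together and TOP tracts lie at the transcript start. RefSeq start sequences (GRCm38.p6) were used after the entries of a single chromosome had been left out. This gave sequences for 68 of the 93 members and 57 of the 77 core genes, so a gene without one is not necessarily missing from RefSeq. The run sought was a C followed by pyrimidines, at least 5 bases in all, beginning within 2 bases of an annotated start. It was found in 20 of the 57 core genes (35.1%) and in 10.6% of the 27025 genes with an entry. Where a gene had several annotated starts, the one with the longest run was used here and below, which favours genes with more starts. Among the members shown, Rpl35a had 3 starts and Rpl3l and Rps27l had 2 each. Below are the 20 bases before and the 20 bases from the annotated start of the members with the largest and smallest changes, 5′ to 3′ on the gene's strand, with such a run in capitals where there is one. Rpl36, among the smallest, is named only.
Rpl12: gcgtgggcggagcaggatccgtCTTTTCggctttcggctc
Rpl15: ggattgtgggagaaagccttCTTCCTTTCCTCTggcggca
Rps4x: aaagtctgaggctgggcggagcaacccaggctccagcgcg
Rpl10: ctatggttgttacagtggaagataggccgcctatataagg
Rps3: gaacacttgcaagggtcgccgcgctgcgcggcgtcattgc
Rps15a: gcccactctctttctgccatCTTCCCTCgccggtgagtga
Rpl3l: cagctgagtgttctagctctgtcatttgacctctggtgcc
Rpl36al: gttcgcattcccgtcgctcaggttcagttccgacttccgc
Rpl7l1: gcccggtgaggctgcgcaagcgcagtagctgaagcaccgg
Rpl35a: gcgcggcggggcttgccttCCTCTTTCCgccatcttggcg
Rps27l: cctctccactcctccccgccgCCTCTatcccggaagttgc

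These windows lie at chr2:32961692-32961731 (plus strand) for Rpl12, chr14:18270967-18271006 (minus strand) for Rpl15, chrX:102189372-102189411 (minus strand) for Rps4x and chrX:74270796-74270835 (plus strand) for Rpl10. Those of the next members are at chr7:99483690-99483729 (minus strand) for Rps3, chr7:118116128-118116167 (minus strand) for Rps15a and chr16:33056462-33056501 (plus strand) for Rpl35a. The paralogs are at chr17:24727806-24727845 (plus strand) for Rpl3l, chr12:69184048-69184087 (minus strand) for Rpl36al, chr17:46782637-46782676 (minus strand) for Rpl7l1 and chr9:66946066-66946105 (plus strand) for Rps27l. The longest run shown, of 13 bases, is that of Rpl15, and the run of 9 bases at Rpl35a belongs to a core gene that was not called. Annotated starts can miss the used start by several bases, and a missing run says only that these letters are not at this position.

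Runs were found in members with large and with small changes, and whether the change differs with the run was not tested. The 20 core genes with a run had a median log2 fold change of 0.63, and 17 of them were called higher. The 37 core genes without one had a median of 0.56, and 34 were called higher. Within 50 bases on either side of the start used and on both strands, CTTTCC occurred in 29.8% of core genes and 8.73% of all genes with an entry. For CTTCCT the shares were 36.8% and 15.1%. The motifs can overlap each other and the run.

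Other genes that make, load or control ribosomes were taken from lists by role, to set beside the members. Their counts are to be read against the 34.2% of all genes tested that were called higher and the 31.1% called lower, and no list was tested against all genes. Of 60 ribosome biogenesis genes, 47 were called higher (78.3%) and 6 lower (10.0%), with a median log2 fold change of 0.58, close to that of the members. Eif6, which keeps the subunits apart until the large one is mature, was at 63.6 to 70.7 CPM in controls and 201 to 266 CPM after puberulic acid (log2 fold change 1.80 ± 0.09). Nop56 and Nop58, core proteins of the box C/D particles that methylate ribosomal RNA, had log2 fold changes of 1.56 ± 0.15 each. Mdn1, a giant ATPase that strips assembly factors from the large subunit, had -2.01 ± 0.40, and Utp20, a small subunit assembly factor, had -1.32 ± 0.17. Of 15 RNA polymerase I genes, 4 were called higher (26.7%, below the share over all genes) and 0 lower, with a median of 0.10; the largest were Taf1d at 2.67 ± 0.17 and Taf1a at 1.18 ± 0.15, both factors that help the polymerase start on ribosomal DNA.

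Of 10 genes listed as chaperones of ribosomal proteins, not all of them dedicated to that role, 2 were called higher and 5 lower, with a median log2 fold change of -0.14. Bccip, a chaperone of Rpl23, was at 68.3 to 77.3 CPM in controls and 33.2 to 39.7 CPM after puberulic acid. Aamp, a chaperone of Rpl10, had a log2 fold change of -0.91 ± 0.07, while Nap1l1 had 1.24 ± 0.10 and Grwd1, a chaperone of Rpl3, had 0.83 ± 0.14. Of the ribosome components that carry other names, Fau, a ribosomal protein fused to a ubiquitin-like protein, and Rack1, a scaffold on the small subunit, were not called, with log2 fold changes of 0.24 ± 0.14 and 0.23 ± 0.15. At an unadjusted p under 0.05 in edgeR, neither gene differed and 0 of the RNA polymerase I genes were lower, and DESeq2 called 0 of the latter lower and neither of the former.

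Among 17 elongation factors and other TOP mRNAs, 11 were called higher (64.7%) and 0 lower (also 0 at an unadjusted p under 0.05 in edgeR and 0 in DESeq2), with a median log2 fold change of 0.42. The largest were Vim, an intermediate filament protein of fibroblasts and other mesenchymal cells, at 2.45 ± 0.27, and Gas5, a non-coding host of small nucleolar RNAs, at 2.23 ± 0.14. Of 28 initiation factors, 14 were called higher and 2 lower (7.14%), with a median of 0.22. Eif4a1, the RNA helicase of initiation, had 0.89 ± 0.08 and Eif2s1 0.88 ± 0.14, whereas Eif3m had -0.45 ± 0.09 and Eif4a2, a paralog of Eif4a1, -0.36 ± 0.10; on total counts the last 2 were at 0.05 and 0.15, where the median of all genes was 0.56.

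In the mTOR, Larp1 and S6 kinase list, 11 of 27 tested genes were called higher (40.7%) and 8 lower (29.6%), near the shares over all genes, with a median log2 fold change of 0.18. Mtor, the kinase itself, was at 210 to 321 CPM in controls and 76.2 to 120 CPM after puberulic acid (log2 fold change -1.49 ± 0.14). Eif4ebp1, a repressor of cap-dependent initiation that mTOR inactivates, had 1.99 ± 0.11, and its relative Eif4ebp3 had -0.91 ± 0.17. Myc, a transcription factor that acts on ribosome genes, was at 2.55 to 10.1 CPM in controls and 31.1 to 51.6 CPM after puberulic acid (3.03 ± 0.33). Of 19 ribosome quality control and storage genes, 7 were called higher (36.8%, near the 34.2% of all genes) and 4 lower (21.1%, against 31.1%), with a median of 0.10. Serbp1, which occupies idle ribosomes, had 0.98 ± 0.08, Map3k20, a kinase that senses stalled ribosomes, 0.84 ± 0.11 and Ankzf1, which frees stalled chains, -0.92 ± 0.12. Usp10, a deubiquitinase of the small subunit, was called lower at -0.40 ± 0.16, at 0.11 on total counts, where the median of all genes was 0.56, and the edgeR adjusted p ranged from 0.00552 to 0.0985 when 1 library at a time was left out, and the call held only without control replicate 1 or puberulic acid replicate 4.

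**Figure D5:**
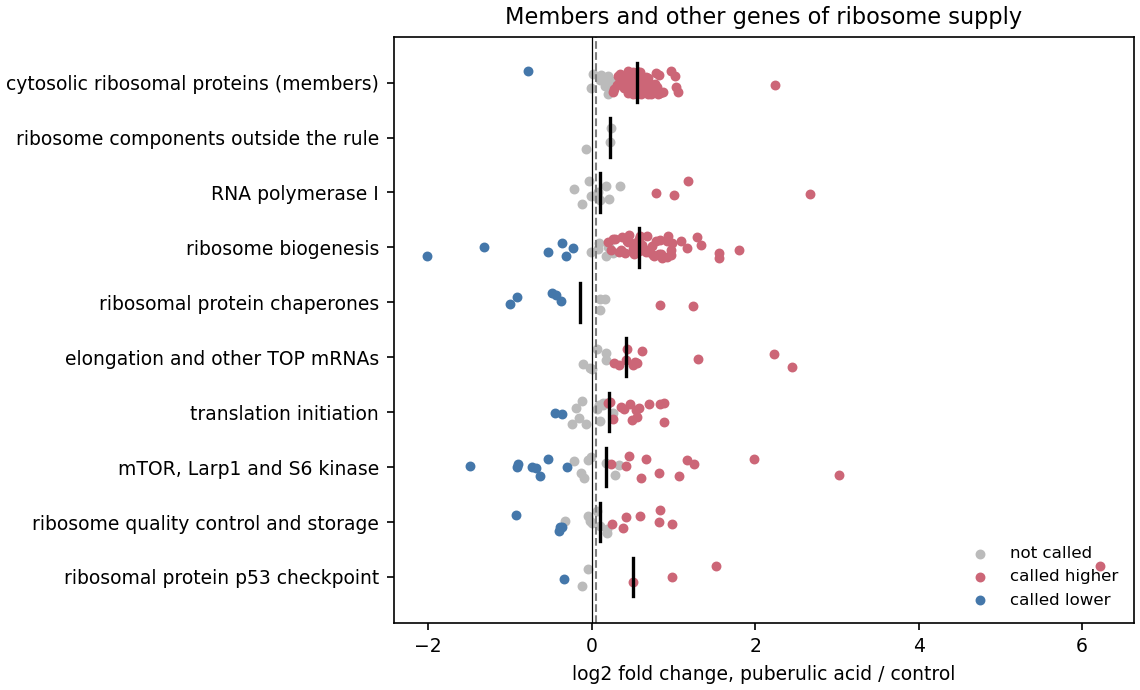
Log2 fold change, puberulic acid over control (x axis), of the members and of the other genes of ribosome supply, 1 point per gene tested, coloured by call at an adjusted p under 0.05 in edgeR. Black bars are the list medians, 0.55 for the members, 0.58 for biogenesis and -0.14 for chaperones, and the dashed line is the median of all genes tested (0.05).

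Markers of several cell types in the tissue changed along with the members, while those of others were mixed. All 5 proximal tubule markers were called lower, with their sum at 5064 to 8283 CPM in controls and 241 to 769 CPM after puberulic acid. All 3 fibroblast markers (Col1a1, Col3a1 and Pdgfrb) were called higher, with sums of 50.3 to 90.0 CPM in controls and 350 to 1391 CPM after puberulic acid. All 3 markers of cycling cells (Mki67, Top2a and Cdk1) were called higher, with sums of 4.47 to 14.3 CPM and 58.8 to 191 CPM. Of 5 leukocyte markers tested, 3 were called higher, with the sum of all 6 at 24.7 to 92.5 CPM and 89.0 to 313 CPM in the groups. All 3 erythroid markers were called lower, with sums of 606 to 2041 CPM and 17.6 to 180 CPM. The collecting duct markers (2 of 2) were called lower, with sums of 252 to 387 CPM and 119 to 160 CPM. The distal tubule markers (2 of 2) were called lower with overlapping sums. Sums also overlapped for loop of Henle, podocyte and endothelium markers, of which 1 of 2, 1 of 2 and 1 of 3 were called lower. None of these markers was at 0 in every library, and their part in the result was not tested.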

How the data were processed

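Whole-kidney poly(A) RNA-seq was deposited as estimated counts for each gene, with decimals. The submitters' processing notes name fastp 0.22.0, FastQC 0.12.1, MultiQC 1.28, Salmon 1.10.3, DESeq2 and the GRCm39 build, with no roles or order, so how the authors made the estimated counts and treated reads that fit several genes is not given in the sources used here. Symbols came from a gene name table that matched 51344 of 55822 rows, which held 99.3% of the counts. A further 10 columns of per-sample values, in 2 sets, name a dose but not a sample group and were not used.

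Counts of the 10 control and puberulic acid libraries were rounded to whole numbers, filtered with filterByExpr, scaled by TMM and fitted with edgeR 4.0.16 (R 4.3.3), glmQLFit and glmQLFTest, over the whole table, with Benjamini-Hochberg adjustment and a threshold of 0.05. CPM values are on TMM-scaled library sizes, and SE is that of the fitted log2 fold change. Control libraries had TMM factors of 0.827 to 0.848, and puberulic acid libraries 1.17 to 1.26. Library totals of 18409877 to 24705587 limit the precision of members with a few CPM. The fit was also run on simulated counts in which few genes changed. That setting is unlike these data, so the run does not vouch for the scaling or the calls here. Copies were found with blastn 2.17.0. The members and lists were chosen with earlier results of these data known. Values in every library were given for the 6 largest and 6 smallest changes among members tested, the stalk and Rpsa, the 3 highest per coding length, the paralog pairs, Rpl5 and Rpl11. From each other list the 2 largest called changes in each direction were named, with the fold change, the CPM range or both, apart from a few genes that are not reported here. Alternatives were other scalings, filters, DESeq2 1.42.0, a replicate block, added copies and leaving out each library.

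Same-numbered samples of the groups had deviations that correlated at -0.172 to 0.039, so the replicate numbers were not taken to pair samples.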

Additional observations from a re-analysis of the deposited data

Results flagged for a closer look

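The search covered 61 groups of 5 values, and 2 held a sample whose gap to its neighbour exceeded 0.71 of the group's range; chance alone gives about 1 in 20, or 3.0 here. Rpl15 in control replicate 3 was at 355.8 CPM, the highest of the controls, with a gap of 0.791 of the range, and it remained far below every puberulic acid library. Rpl39l in puberulic acid replicate 4 was at 0.159 CPM while the other 4 libraries of the group were at 0, so its gap was the whole range.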

How the results depend on the processing

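The members' median log2 fold change stayed above 0 in each of the 23 other settings, and 61 members were called higher in all of them. Counts of members called higher ranged from 71 (RLE factors) to 85 (total counts), apart from 69 with no filter, and from 63 to 75 when 1 library was left out, where the median ranged from 0.47 to 0.59 and the difference in share from 2.11 to 2.44 percentage points. With the replicate block, 73 were called higher; the numbers do not pair the samples. Total counts without a factor moved the median of all genes to 0.56, with 56.4% of genes called higher, and gave 0 members called lower and a members' median of 1.06, so 0.50 above all genes, the same distance as with TMM. Without a filter 2 members were called lower, Rpl3l and Rps12l1, and with many more genes tested the median of all genes was 0.33, so the members' median lay 0.22 above it. Small changes switched sign: Rpl36 was at 0.08 with upper-quartile factors, 0.49 on total counts and -0.09 to 0.02 when a library was left out, Rpl36al at -0.06 to 0.07 and Rpl7l1 at -0.01 to 0.17 when a library was left out. On total counts, all below the median of 0.56 over all genes, Eif3m was at 0.05, Eif4a2 at 0.15 and Usp10 at 0.11. Adding copies, and adding pseudogene and retrocopy counts, were chosen after the data were seen. Of 1242 single-gene values in other settings, 1205 kept their direction and call. The 7 members that did not pass the filter have no test, and depth limits members with a few CPM such as Rpl3l.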
